A study of Homo sapiens with 9 samples.

Results

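The EphB receptors and ephrin-B ligands were followed through 3 lines of SW480 human colon carcinoma cells by RNA sequencing. The members were listed by name: the receptors EPHB1, EPHB2, EPHB3, EPHB4 and EPHB6 and the ligands EFNB1, EFNB2 and EFNB3, which make 8 genes of 63677 Ensembl identifiers in the count files. SW480 is the unmodified parent line, SW480-B a clone with ectopic BASP1 driven by the CMV promoter of a pcDNA3 vector and selected in G418, and SW480-gRNA-B-all a line in which the silent endogenous BASP1 gene was activated by CRISPRa (the CRISPRa line). The CRISPRa cells descend from a single-cell clone carrying dCas9-VP64 and also hold the MS2-P65-HSF1 activator, the pooled guides to the BASP1 promoter and a puromycin marker. Each line was sequenced as 3 poly(A) libraries, and all 9 libraries carry the same batch label and, SW480 included, the same treatment label, so that the lines were told apart by their titles. No library of a line with empty vectors or without guides was among those analysed here, so that BASP1, the vectors and the choice of clone cannot be told apart.

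Ephrin-B ligands are membrane proteins, and they bind EphB receptor tyrosine kinases on a neighbouring cell, with signals running into both cells. In the intestinal crypt, EphB2 and EphB3 mark the proliferative base, where beta-catenin/TCF activity is high, and ephrin-B1 and ephrin-B2 mark the cells above, so that the receptors and ligands keep the compartments apart. In colorectal tumours EphB2, EphB3 and EphB4 are known for loss during progression. EphB6 lacks kinase activity and EphB4 has ephrin-B2 as its main ligand.

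Counts on genes ranged from 25238831 to 29355669 per library, and a gene with 0 counts is limited by 3 counts to between 0.100 and 0.116 CPM (fragments of a gene relative to the TMM-scaled size of its library), a limit that covers counting error only. BASP1, the targeted gene, was measured at 11.9, 8.03 and 0.691 CPM in replicates 1, 2 and 3 of SW480, at 268, 268 and 250 CPM in SW480-B, and at 167, 303 and 300 CPM in the CRISPRa line. Colorectal epithelial markers summed to between 6331 and 11360 CPM in the 9 libraries, with means of 4925, 4858 and 4052 CPM for KRT8 in SW480, SW480-B and the CRISPRa line. CDH17 had 0 counts in both BASP1-expressing lines, and KRT20 and LGALS4 stayed below 1 CPM on average in every line. Fibroblast, endothelial and leukocyte markers summed to no more than 10.9, 4.40 and 6.04 CPM in any library. Replicates 2 and 3 of the CRISPRa line stood closer together than any other replicates of a line: 0% of genes differed by more than 2-fold between them, against 6.38% to 25.3% in the other comparisons of replicates. Their counts still differed by more than sampling noise (chi-square of 3.13 per gene), so they were kept as separate libraries and are also given summed. The labels do not say whether replicates were separate cultures, so p-values measure only the spread between these libraries, which may be technical. In bulk libraries a smaller share of expressing cells and less mRNA per cell cannot be told apart.

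On GRCh37 the members lie on 6 chromosomes. EPHB1 (ENSG00000154928) is at chr3:134514102-134979309, EPHB2 (ENSG00000133216) at chr1:23037332-23247993, EPHB3 (ENSG00000182580) at chr3:184279573-184300196, EPHB4 (ENSG00000196411) at chr7:100400187-100425145 and EPHB6 (ENSG00000106123) at chr7:142552823-142568847. EFNB1 (ENSG00000090776) is at chrX:68048864-68062003, EFNB2 (ENSG00000125266) at chr13:107142093-107188010 and EFNB3 (ENSG00000108947) at chr17:7608520-7614690. EPHB4 overlaps SLC12A9 on the opposite strand, and EPHB2 overlaps short or non-coding genes. Whether the counting used strand is not given in the sources used here, so reads of such overlaps could not be assigned with certainty.

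Promoter sequences are shown for the receptors that moved in opposite directions, EPHB2 against EPHB3 and EPHB6, and for EFNB1, the ligand with the highest level. Each runs from 250 bases before to 50 bases after the annotated start, 5′ to 3′ on the gene's strand, from RefSeq on GRCh38.p14, a build other than that of the counts. Capitals mark GGGCGG on either strand, the core of a GC box. The positions are chr1:22710588-22710887 (plus strand) for EPHB2, chr3:184561535-184561834 (plus strand) for EPHB3, chr7:142862506-142862805 (plus strand) for EPHB6 and chrX:68828771-68829070 (plus strand) for EFNB1.
EPHB2: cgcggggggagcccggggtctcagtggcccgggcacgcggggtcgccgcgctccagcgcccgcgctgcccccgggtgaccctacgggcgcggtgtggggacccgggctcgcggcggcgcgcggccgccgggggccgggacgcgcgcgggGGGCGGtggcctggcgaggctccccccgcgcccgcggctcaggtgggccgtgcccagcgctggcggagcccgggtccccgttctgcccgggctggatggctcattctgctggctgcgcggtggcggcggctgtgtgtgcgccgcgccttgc
EPHB3: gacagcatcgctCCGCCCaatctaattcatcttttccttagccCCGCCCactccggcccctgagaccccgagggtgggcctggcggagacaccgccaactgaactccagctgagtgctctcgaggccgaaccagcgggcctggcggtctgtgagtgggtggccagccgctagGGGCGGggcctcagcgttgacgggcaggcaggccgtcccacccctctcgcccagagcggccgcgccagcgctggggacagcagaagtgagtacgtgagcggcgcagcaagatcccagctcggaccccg
EPHB6: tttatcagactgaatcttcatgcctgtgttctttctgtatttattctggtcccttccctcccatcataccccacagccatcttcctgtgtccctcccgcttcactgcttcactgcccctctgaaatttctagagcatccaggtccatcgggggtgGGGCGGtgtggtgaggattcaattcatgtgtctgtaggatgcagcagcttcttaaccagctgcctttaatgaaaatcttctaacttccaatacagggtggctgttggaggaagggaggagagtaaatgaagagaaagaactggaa
EFNB1: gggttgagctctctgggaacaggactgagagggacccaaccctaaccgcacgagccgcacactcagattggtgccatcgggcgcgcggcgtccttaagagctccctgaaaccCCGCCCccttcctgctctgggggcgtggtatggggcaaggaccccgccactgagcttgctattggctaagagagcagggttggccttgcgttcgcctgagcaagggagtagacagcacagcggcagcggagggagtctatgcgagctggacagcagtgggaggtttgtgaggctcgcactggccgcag
The table of promoters held 7 of the 8 members, all but EFNB3. GC content was 83.0% in EPHB2, 69.0% in EPHB3, 63.7% in EFNB1 and 48.0% in EPHB6, against a median of 58.3% over 27305 promoters of the same length. EPHB2 and EFNB2 each held 49 CpG and EPHB6 held 3. All 7 members held GGGCGG at least once, from 1 match in EPHB1, EPHB2, EPHB6 and EFNB1 to 5 in EPHB4, and 44.6% of all promoters held it. The TCF motifs CTTTGAA and CTTTGAT, and the variants CTTTGTA and CTTTGTT, were searched on both strands and matched none of the 7, while 13.9% of all promoters had a match. CACGTG, an E-box, also matched none of the 7 and 7.43% of all promoters. These windows say only which letters are present.

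Among the receptors, EPHB2 rose in the CRISPRa line while EPHB3 and EPHB6 fell, and EPHB1 and EPHB4 did not pass the test. EPHB2, the receptor of the crypt base, was measured at 10.7, 18.6 and 30.3 CPM in SW480, at 8.77, 33.4 and 27.5 CPM in SW480-B and at 56.5, 72.4 and 75.2 CPM in the CRISPRa line. All 3 libraries of the CRISPRa line lay above all 6 others, and SW480-B overlapped SW480. The log2 fold change of the CRISPRa line was 1.77 ± 0.37 (SE) against SW480, a 3.41-fold rise (edgeR adjusted p = 0.0358), and 1.55 ± 0.42 against SW480-B (edgeR adjusted p = 0.0565). SW480-B differed from SW480 by 0.26 ± 0.53 on the log2 scale (edgeR adjusted p = 0.848).

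EPHB3, which shares the crypt base with EPHB2, went the other way. It was measured at 20.8, 20.8 and 20.6 CPM in SW480, at 23.6, 19.4 and 11.7 CPM in SW480-B and at 7.42, 10.3 and 12.0 CPM in the CRISPRa line. The SW480 libraries had a coefficient of variation of 0.613% on 605, 603 and 566 counts, less than counting error alone would give. All 3 libraries of the CRISPRa line lay below those of SW480, and SW480-B reached into both ranges. EPHB3 fell by 1.08 ± 0.23 on the log2 scale in the CRISPRa line against SW480 (2.11-fold, edgeR adjusted p = 0.0376). The difference from SW480-B was -0.89 ± 0.30 (edgeR adjusted p = 0.117), and that of SW480-B from SW480 was -0.15 ± 0.30 (edgeR adjusted p = 0.839).

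EPHB6, the receptor without kinase activity, fell furthest among the receptors. Its levels were 161, 176 and 124 CPM in SW480, 49.5, 49.9 and 81.6 CPM in SW480-B and 26.4, 16.5 and 20.4 CPM in the CRISPRa line. The ranges of the 3 lines did not overlap, with SW480 highest and the CRISPRa line lowest. EPHB6 fell by 2.87 ± 0.24 on the log2 scale in the CRISPRa line against SW480 (7.31-fold, edgeR adjusted p = 0.00538) and the log2 difference from SW480-B was -1.52 ± 0.26 (2.86-fold, edgeR adjusted p = 0.0120). In SW480-B the log2 difference from SW480 was -1.31 ± 0.28 (edgeR adjusted p = 0.0710), which did not pass the threshold. It passed with DESeq2 (adjusted p = 0.00291), without the filter on low counts (edgeR adjusted p = 0.00445) and with all 9 libraries in 1 fit (edgeR adjusted p = 0.0267). With RLE factors, the filter of 1 CPM or the replicate block it did not (edgeR adjusted p = 0.0637, 0.0775 and 0.0788). Of the 6 fits that each left out a library, it passed in 1, that without SW480 replicate 3 (edgeR adjusted p = 0.0252). In the others the edgeR adjusted p reached 0.290.

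EPHB4, the partner of ephrin-B2, had 69.1, 111 and 121 CPM in SW480, 85.9, 81.0 and 99.3 CPM in SW480-B and 86.3, 88.8 and 92.3 CPM in the CRISPRa line. The ranges of the lines overlapped, and the log2 differences were -0.18 ± 0.22 for the CRISPRa line and -0.14 ± 0.26 for SW480-B, both against SW480 (edgeR adjusted p = 0.625 and 0.827). EPHB1 was the receptor nearest to the limit of detection. It had 0.413, 0.758 and 0.0364 CPM in SW480, 0.271, 1.18 and 0.283 CPM in SW480-B and 2.88, 2.20 and 2.87 CPM in the CRISPRa line, with 35, 48 and 237 counts over the 3 libraries of each line. Every library of the CRISPRa line lay above the other 6. The log2 difference of that line was 2.69 ± 0.77 against SW480 and 2.19 ± 0.57 against SW480-B, and neither passed the threshold (edgeR adjusted p = 0.0753 and 0.0517). Both passed with DESeq2 (adjusted p = 0.00212 and 0.00165) and without the filter on low counts (edgeR adjusted p = 0.0468 and 0.00460). Neither passed with all 9 libraries in 1 fit (edgeR adjusted p = 0.0586 and 0.163). With replicates 2 and 3 of the CRISPRa line summed, neither passed (edgeR adjusted p = 0.188 and 0.127). Each passed in 1 of the 6 fits that left out a library.

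Of the ligands, EFNB1 and EFNB2 fell in the CRISPRa line and EFNB3 did not pass the test in any comparison. EFNB1, the ligand of upper crypt cells and the member with the most mRNA, was measured at 215, 225 and 548 CPM in SW480, at 484, 468 and 444 CPM in SW480-B and at 97.1, 92.8 and 100.3 CPM in the CRISPRa line. Replicate 3 of SW480 stood apart from the other SW480 libraries and above every SW480-B library, and all 3 libraries of the CRISPRa line were below all 6 others. EFNB1 fell by 2.27 ± 0.16 on the log2 scale in the CRISPRa line against SW480-B (4.82-fold, edgeR adjusted p = 0.000610) and by 1.77 ± 0.38 against SW480 (3.42-fold, edgeR adjusted p = 0.0389). SW480-B differed from SW480 by 0.53 ± 0.38 (edgeR adjusted p = 0.535), and by 1.12 without SW480 replicate 3 (edgeR adjusted p = 0.0508).

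EFNB2, the main ligand of EphB4 and known from blood vessels, had 44.8, 40.8 and 13.6 CPM in SW480, 16.5, 34.5 and 10.4 CPM in SW480-B and 6.23, 1.34 and 1.67 CPM in the CRISPRa line. The CRISPRa line lay below both other lines in all 3 libraries, with replicate 1 well above replicates 2 and 3, and SW480-B overlapped SW480. EFNB2 fell by 3.43 ± 0.74 on the log2 scale against SW480 (10.8-fold, edgeR adjusted p = 0.0395) and by 2.73 ± 0.66 against SW480-B (6.65-fold, edgeR adjusted p = 0.0385). Without the filter on low counts the fall against SW480 did not pass the threshold (edgeR adjusted p = 0.0766). The 3 lines overlapped for EFNB3, known as a ligand of the nervous system, with 7.23, 14.3 and 8.84 CPM in SW480, 23.2, 14.2 and 15.9 CPM in SW480-B and 18.9, 14.6 and 14.0 CPM in the CRISPRa line. Its log2 difference from SW480 was 0.64 ± 0.31 in the CRISPRa line and 0.85 ± 0.35 in SW480-B (edgeR adjusted p = 0.216 and 0.298).

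**Figure D1:**
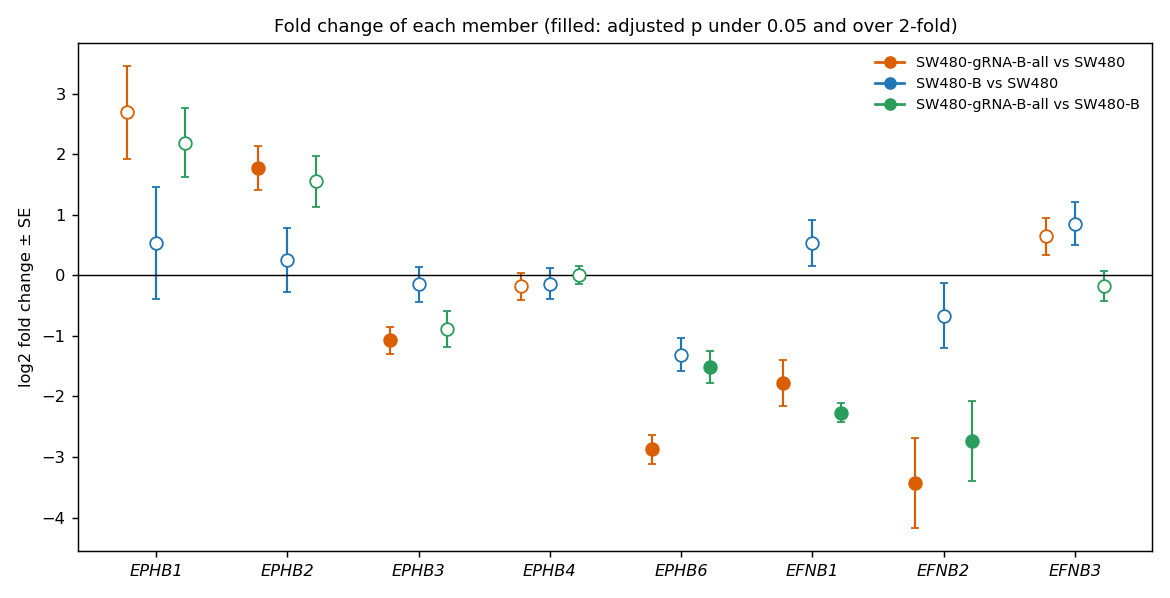
log2 fold change of each member with its standard error in the 3 comparisons of lines, with filled points for changes above 2-fold at an adjusted p under 0.05. In SW480-gRNA-B-all against SW480 only EPHB2 is filled above 0, and EPHB3, EPHB6, EFNB1 and EFNB2 are filled below it.

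In the CRISPRa line against SW480, 1 of the 8 members was called higher (EPHB2) and 4 lower (EPHB3, EPHB6, EFNB1 and EFNB2), where a call needed an edgeR adjusted p under 0.05 and a change above 2-fold. The same rule called 1.89% of 16100 genes higher and 4.66% lower. The members' median absolute log2 fold change was 1.77, against 0.43 over all genes tested. The ranges of the lines did not overlap for 2 members that were higher and 4 that were lower, beside 18.0% and 20.0% of all genes. In SW480-B against SW480, edgeR called 0 members, with 0.0931% of 16106 genes called higher and 1.25% lower. An unadjusted p under 0.05 (edgeR) was found for 2 members (EPHB6 and EFNB3), beside 2549 of 16106 genes. DESeq2 called 1 member, EPHB6, which was lower, beside 730 of 30000 genes called lower. EPHB6 was the 1 member whose ranges did not overlap in that comparison, where all libraries were lower for 11.8% of genes and higher for 10.6%. Between the CRISPRa line and SW480-B, 3 members were called lower (EPHB6, EFNB1 and EFNB2) and 0 higher by edgeR, with 2.31% of 15846 genes called higher and 4.37% lower. EPHB1 and EPHB2 had unadjusted p = 0.00464 and 0.00542 there, and DESeq2 called both higher. EPHB1 and EPHB2 were higher and EPHB6, EFNB1 and EFNB2 lower in all 3 libraries, beside 15.0% and 15.4% of genes. The comparisons share libraries, and the values above are those of each comparison by itself.

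Most of the calls against SW480 were lost in fits with fewer libraries, while the fold changes kept their direction. With each library left out in turn, the log2 fold change was 1.49 to 2.23 for EPHB2, -1.22 to -0.90 for EPHB3, -3.05 to -2.71 for EPHB6, -1.98 to -1.17 for EFNB1 and -4.45 to -3.06 for EFNB2. Of the 6 fits that each left out a library, EPHB6 lost its call only in that without SW480 replicate 2 (edgeR adjusted p = 0.0501). EPHB2 lost it without SW480 replicate 2 (0.140) or without replicate 1, 2 or 3 of the CRISPRa line (edgeR adjusted p = 0.0871, 0.129 and 0.129). EFNB1 lost it without the same libraries (edgeR adjusted p = 0.0968 without SW480 replicate 2, and 0.119, 0.152 and 0.142), and its log2 fold change was -1.17 without SW480 replicate 3. EPHB3 and EFNB2 lost theirs without any library other than SW480 replicate 3, with edgeR adjusted p from 0.0518 to 0.156 for EPHB3 and from 0.0523 to 0.139 for EFNB2. Calls over all genes fell from 1055 to 8 without SW480 replicate 2 and to 178, 78 and 76 without replicate 1, 2 or 3 of the CRISPRa line, and without SW480 replicate 3 they rose to 2659 and 6 members were called, EPHB1 with the 5 above. With replicates 2 and 3 of the CRISPRa line summed, EPHB6 remained called (edgeR adjusted p = 0.0357) and the other 4 had adjusted p from 0.127 to 0.145. No fold change of these 5 members changed sign in any of these fits.

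Against SW480-B, the fall of EFNB1 was called in all 6 fits that left out a library (edgeR adjusted p from 0.00157 to 0.00635) and with the libraries summed (0.00663). EPHB6 lost its call without replicate 2 or 3 of the CRISPRa line (edgeR adjusted p = 0.0583 and 0.0601) and with them summed (0.0572), with log2 fold changes of -1.69 to -1.24 over the fits that left out a library. EFNB2 lost its call without those libraries (0.110 and 0.129), without SW480-B replicate 1 or 2 (0.0953 and 0.148), with the summed libraries (0.122), with all 9 libraries in 1 fit (0.0567) and without the filter on low counts (edgeR adjusted p = 0.212). EPHB1 was called without SW480-B replicate 2 (edgeR adjusted p = 0.0190), EPHB2 without SW480-B replicate 1 (0.0319) and EPHB3 without SW480-B replicate 3 (0.0350).

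Levels between genes were compared only per length, as FPKM (CPM per kilobase of exons), and as a description without a test. In SW480, EFNB1 came first with 99.7 ± 57.4 FPKM (SD, n = 3), followed by EPHB6 (28.9 ± 5.07), EPHB4 (15.6 ± 4.26), EFNB2 (6.61 ± 3.39), EPHB3 (4.58 ± 0.03), EFNB3 (3.14 ± 1.15), EPHB2 (1.59 ± 0.79) and EPHB1 (0.0689 ± 0.0618). Of neighbours in that order, EFNB2 and EPHB3 overlapped, as did EFNB3 and EPHB2. In SW480-B, EFNB1 again came first (141 ± 5.96 FPKM), EPHB4 (13.8 ± 1.47) and EPHB6 (11.3 ± 3.46) overlapped, and so did each neighbour from EFNB3 (5.53 ± 1.48) through EFNB2 (4.09 ± 2.50) and EPHB3 (4.03 ± 1.33) to EPHB2 (1.86 ± 1.03). EPHB1 was last at 0.0987 ± 0.0889 FPKM. In the CRISPRa line the order was EFNB1 (29.3 ± 1.14 FPKM), EPHB4 (13.9 ± 0.47), EPHB2 (5.44 ± 0.81), EFNB3 (4.93 ± 0.83), EPHB6 (3.97 ± 0.93), EPHB3 (2.18 ± 0.51), EFNB2 (0.615 ± 0.547) and EPHB1 (0.454 ± 0.066), with EPHB2, EFNB3 and EPHB6 overlapping as neighbours and EFNB2 overlapping EPHB1. EPHB2 was thus at rank 7 in SW480 and, not separated from EFNB3 and EPHB6, at rank 3 in the CRISPRa line. EPHB6 was at rank 2 in SW480 and at rank 5 in the CRISPRa line, or at rank 4 there with the length of the canonical transcript.

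The make-up of the receptor mRNA shifted with these changes. EPHB6 made up 57.0 ± 8.9% of the summed receptor FPKM in SW480, 35.9 ± 6.2% in SW480-B and 15.4 ± 3.9% in the CRISPRa line (SD, n = 3). EPHB4 made up 30.6 ± 7.6%, 44.4 ± 1.9% and 53.5 ± 1.0%, and EPHB2 made up 3.14 ± 1.62%, 5.93 ± 3.37% and 21.0 ± 2.5%, in the same order of lines. The receptor sum itself was 50.7 ± 5.3, 31.1 ± 3.9 and 25.9 ± 1.3 FPKM, while EPHB4 was at 15.6, 13.8 and 13.9 FPKM. The lines did not overlap for the share of EPHB6, and for EPHB2 the libraries of the CRISPRa line, at 18.1% to 22.8%, lay above the rest, at 1.84% to 9.18%. The ratio of EPHB2 to EPHB3 FPKM was 0.186, 0.324 and 0.533 in SW480, 0.135, 0.624 and 0.847 in SW480-B and 2.76, 2.55 and 2.28 in the CRISPRa line.

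The length used for EPHB2 matters, since its exons span 12516 bases and its coding sequence 2958. With coding lengths EPHB2 made up 6.80%, 12.1% and 35.7% of the receptor sum, EPHB6 made up 51.6%, 30.5% and 10.8%, and EPHB4 made up 34.3%, 47.2% and 46.9%, with SW480-B and the CRISPRa line overlapping for EPHB4. The ratio of EPHB2 to EPHB3 was then 6.37 to 7.71 in the CRISPRa line against 0.376 to 2.37 in the other lines. With exon lengths again, EFNB1 made up 88.8 ± 6.9% of ligand FPKM in SW480, 93.6 ± 1.2% in SW480-B and 84.2 ± 3.2% in the CRISPRa line. EFNB3 made up 14.1 ± 1.9% in the CRISPRa line, against 3.35 ± 1.98% in SW480 and 3.66 ± 0.86% in SW480-B. Summed ligand FPKM was 76.2, 80.8 and 172 in SW480, 157, 153 and 142 in SW480-B and 36.5, 32.9 and 35.1 in the CRISPRa line, with no overlap between the CRISPRa line and the others. The ratio of ligands to receptors was 1.64, 1.43 and 3.50 in SW480, 5.49, 5.26 and 3.98 in SW480-B and 1.28 to 1.46 in the CRISPRa line. SW480 and the CRISPRa line overlapped in this ratio with exon lengths, and replicate 3 of SW480 stood above the other SW480 libraries. With coding lengths the 2 lines did not overlap. The ratio was then 2.99, 2.50 and 5.60 in SW480 and 1.96, 1.64 and 1.64 in the CRISPRa line.

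The other genes of the Eph system were tested by the same rule. Of 14 EphA receptors and ephrin-A ligands, 10 were tested in the CRISPRa line against SW480 and 1 was called, higher: EFNA5, with 5.72, 7.51 and 7.71 CPM against 0.757, 2.27 and 1.56 CPM (log2 fold change 2.18 ± 0.44, edgeR adjusted p = 0.0344). The rule called 1.89% of 16100 genes higher and 4.66% lower. EPHA8 (-2.69 ± 0.64) and EFNA3 (-1.53 ± 0.37) just missed a call (edgeR adjusted p = 0.0502 and 0.0521). The median log2 fold change of the list was -0.02, against -0.05 over all genes. Of the 10 tested, 5 had an unadjusted p under 0.05 (edgeR), beside 4572 of 16100 genes. No EphA or ephrin-A gene was called by edgeR in SW480-B against SW480 or between the CRISPRa line and SW480-B. There 4 and 2 had an unadjusted p under 0.05 (edgeR), beside 2549 of 16106 and 3873 of 15846 genes. Of 41 partners of Eph signalling, such as SRC-family kinases and adaptors, 37 were tested, and edgeR called 0 in either comparison with SW480. In the CRISPRa line 9 had an unadjusted p under 0.05 (edgeR), beside 4572 of 16100 genes. In SW480-B 5 did, beside 2549 of 16106 genes. Against SW480-B, 3 partners were called lower in the CRISPRa line, beside 4.37% of 15846 genes. TIAM1 was at 32.5, 34.0 and 35.7 CPM against 126, 126 and 79.8 CPM (-1.70 ± 0.21, edgeR adjusted p = 0.00357). FYN, a SRC-family kinase, changed by -1.74 ± 0.34 (edgeR adjusted p = 0.0194) and KALRN by -1.96 ± 0.42 (edgeR adjusted p = 0.0252). Against SW480, FYN was at -1.65 ± 0.40 in the CRISPRa line and just missed a call (edgeR adjusted p = 0.0512).

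More than 10 genes of the crypt base and targets of beta-catenin/TCF fell in the CRISPRa line, where EPHB3 fell and EPHB2 rose. Of 24 such genes other than the members, 22 were tested in the CRISPRa line against SW480, with 13 called lower and 0 higher (edgeR, 16 with an unadjusted p under 0.05) and a median log2 fold change of -1.56. Over all 16100 genes tested, 4.66% were called lower, 4572 had an unadjusted p under 0.05 (edgeR) and the median was -0.05. The 9 listed genes that were tested but not called lay between -0.91 and 0.99, among them CCND1 (0.95 ± 0.64) and MSI1 (0.99 ± 0.65). The strongest of the list by adjusted p were SP5, ASCL2, DKK4, BAMBI and PROX1. SP5, a transcription factor induced by WNT signals, had 18.4, 18.0 and 19.5 CPM against 150, 131 and 137 CPM (-2.91 ± 0.15, edgeR adjusted p = 0.00281). ASCL2, the transcription factor of crypt stem cells, changed by -3.62 ± 0.26 (edgeR adjusted p = 0.00473), the pseudoreceptor BAMBI by -2.70 ± 0.23 (0.00538) and PROX1 by -5.69 ± 0.65 (0.00877). The WNT inhibitor DKK4 was at 0.169, 0.100 and 0.0668 CPM against 6.68, 9.48 and 11.2 CPM. In SW480-B 3 of 22 were called lower (DKK4, LGR5 and NOTUM) and the median was 0.01. The WNT deacylase NOTUM changed there by -1.89 ± 0.36 (edgeR adjusted p = 0.0490), and the stem cell receptor LGR5 was at 0, 0.0356 and 0.0707 CPM against 14.9, 9.58 and 2.29 CPM. Between the CRISPRa line and SW480-B, 10 of 20 were called lower, the foremost being BAMBI (-2.83 ± 0.24), SP5 (-2.09 ± 0.17), ASCL2 (-2.53 ± 0.25), LEF1 (-1.69 ± 0.18) and TNFRSF19 (-2.13 ± 0.25), with edgeR adjusted p from 0.000995 to 0.00321.

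Few genes of the differentiated colonocyte were expressed. Of 25, 7 were tested in the CRISPRa line against SW480 and 3 were called lower: the intestinal transcription factor CDX2 (-3.28 ± 0.38, edgeR adjusted p = 0.00896), the microvillus protein VIL1 (-4.44 ± 0.70, edgeR adjusted p = 0.0188) and the cadherin CDH17, which had 0 counts in that line and 18.3, 6.17 and 1.64 CPM in SW480. The median of the tested genes was -3.28, with genes at 0 counts placed at the limit of 3 counts or not. In SW480-B 2 of 8 were called lower, VIL1 (-2.94 ± 0.45, edgeR adjusted p = 0.0255) and CDH17 (0 counts), with a median of -0.26. Between the BASP1-expressing lines 1 of 5 was called, CDX2 (-4.12 ± 0.34, edgeR adjusted p = 0.000995), and the median was -0.94.

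Across the 9 libraries, the genes whose log2 CPM was most like that of EPHB2 among 14023 genes were USP4 (Pearson r = 0.988), LHPP (0.987), ECM1 (0.982), ANO10 (0.980) and PTGES2 (0.980). For EPHB3 they were ENSG00000230715 (r = 0.940), GTF3C2-AS2 (0.940), HOOK3 (0.937), SON (0.934) and SLC11A2 (0.931), and for EFNB1 they were PLB1 (r = 0.970), KRT13 (0.968), BMAL2 (0.968), RASGRP1 (0.965) and MPZL2 (0.961). The libraries fall into 3 lines, so these values are a description over shared samples. Among the members, EPHB2 and EPHB3 had r = -0.78, and EPHB6 and EFNB2 had r = 0.85.

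The genes around some members leaned in the direction of the member, and others did not. Within 5 Mb of EPHB6, the median of 56 genes tested was -0.61 on the log2 scale in the CRISPRa line against SW480, with 9 called, and within 5 Mb of EFNB2 22 genes had a median of -0.52, with 1 called. Near EPHB2, which rose, the median of 127 genes was 0.24, with 9 called, and near EPHB1 that of 55 genes was 0.31, with 3 called. Near EPHB3, which fell, the median of 64 genes was 0.37, with 2 called. Near EFNB1, which also fell, that of 38 genes was -0.05, with 2 called. Over all 16100 genes the median was -0.05, with 1.89% called higher and 4.66% lower. In SW480-B against SW480 the neighbours of EPHB6 had a median of -0.32 (54 genes, 1 called), beside -0.004 over all genes. Between the CRISPRa line and SW480-B the neighbours of EFNB2 had a median of -0.74 (22 genes, 3 called), beside -0.004 over all genes. The part of the surrounding genes in the members' changes was not tested.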

How the data were processed

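Poly(A) RNA of 3 libraries per line was sequenced in stranded libraries. Reads had been mapped to GRCh37 by the authors, who deposited whole-number counts per Ensembl gene, not normalized. The counting program and its strand setting are not given in the sources used here. The deposited metrics files also hold a coverage signal along transcripts, which was normalized by the metrics program (its ratio of the 5′ to the 3′ part was 0.955 to 0.997). Lines naming no gene (8.63% to 13.0% of a library) were left out. Symbols were matched for 55665 of 63677 identifiers.

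Each comparison of lines was tested over its own 6 libraries with edgeR 4.0.16 in R 4.3.3 (filterByExpr with a least count of 10, TMM, glmQLFit with robust estimation, glmQLFTest) and Benjamini-Hochberg adjustment over all genes tested. Standard errors are the log2 fold change over the square root of F. A call needed an adjusted p under 0.05 and a change above 2-fold. FPKM is CPM per kilobase of the union of exons in GENCODE v44 lifted to GRCh37, which need not be the authors' annotation. On simulated counts with 200 changed genes, edgeR recovered 77.5% for SW480-gRNA-B-all and 77.5% for SW480-B, both against SW480. It recovered 89.5% for SW480-gRNA-B-all against SW480-B. Recovery of changes near 2-fold was not tested.

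Named genes were all 8 members, BASP1, up to 5 called genes per list and direction by adjusted p, and the 5 genes most correlated with EPHB2, EPHB3 and EFNB1 (mean of at least 1 CPM). The members and lists were chosen with earlier results of these data known. Alternatives were RLE factors, no filter, a filter of 1 CPM in 3 libraries, all 9 libraries in 1 fit, DESeq2 1.42.0, no fold threshold, each library left out, a sum of replicates 2 and 3 of SW480-gRNA-B-all, other lengths and the replicate number as a block. Coding length was added after seeing the data. Same-numbered libraries of SW480-B and SW480 deviated together (correlation 0.312, 0.444 and 0.407). Libraries of unlike numbers were not compared, so whether the numbers mark pairs was not settled. The main fits did not use the numbers, and the fit with the replicate block is given as an alternative.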

Additional observations from a re-analysis of the deposited data

Results flagged for a closer look

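The 2 BASP1-expressing lines did not move alike from SW480 for 3 members, by the direct test of one line against the other (edgeR, 3 libraries each). The log2 fold change of EFNB1 from SW480-B to SW480-gRNA-B-all was -2.27, with its level against SW480 at 0.53 in the former and -1.77 in the latter. EPHB6 differed by -1.52, and EFNB2 by -2.73. Against SW480, the log2 differences were -2.87 and -1.31 for EPHB6 and -3.43 and -0.67 for EFNB2 in SW480-gRNA-B-all and SW480-B, and neither passed the edgeR threshold in SW480-B. The call of EFNB1 was kept with each library left out in turn. EPHB6 and EFNB2 lost theirs in some of these fits, with log2 fold changes of -1.69 to -1.24 and -3.74 to -2.14. Groups of 3 libraries are too small for a test of outlying samples.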

How the results depend on the processing

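With SW480-gRNA-B-all against SW480, the count of members called was 5 and became 1 with replicates 2 and 3 summed, and 0 to 6 with a library left out; over all genes the count of 1055 became 2380 with DESeq2, 97 with the summed libraries and 8 to 2659 with a library left out. With SW480-B against SW480, 0 members became 1 without the filter on low counts, with all 9 libraries in 1 fit and with DESeq2, and 0 to 1 with a library left out; the 216 genes called became 735 without the filter, 143 with the filter of 1 CPM, 452 with all 9 libraries, 1096 with DESeq2 and 0 to 921 with a library left out (the edgeR fits with 0 calls, without SW480-B replicate 1 or 2, had 1951 and 1676 genes with an unadjusted p under 0.05). With SW480-gRNA-B-all against SW480-B, 3 members became 5 with the replicate block and with DESeq2, 1 with the summed libraries and 1 to 4 with a library left out; the 1059 genes called became 654 with all 9 libraries, 446 with the summed libraries and 420 to 1548 with a library left out. The causes were not tested.

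Of 303 fold changes of members under an alternative, 243 kept their direction and their side of the threshold, 35 lost a call, 16 gained one and 9 reversed, each of the 9 with a library left out and none of them called. The ranges with a library left out were, for SW480-B against SW480, -0.50 to 1.35 (EPHB1), -0.11 to 0.69 (EPHB2), -0.38 to 0.0801 (EPHB3) and -0.35 to 0.0118 (EPHB4), and against SW480-B in SW480-gRNA-B-all, -0.0648 to 0.0930 (EPHB4) and -0.31 to 0.0722 (EFNB3). Of 72 shares per length, 15 moved by more than 1 SD between libraries, each with another length. The 72 include shares without TMM scaling, which could not move because the scaling cancels within a library.

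The labels do not say whether the replicate numbers mark pairs. Same-numbered libraries of SW480-gRNA-B-all correlated at 0.329, -0.014 and 0.323 with SW480 and at 0.290, -0.113 and 0.318 with SW480-B. With the replicate block, no member's call changed in SW480-B (319 genes called). In SW480-gRNA-B-all against SW480 EPHB3 lost its call at the threshold (edgeR adjusted p = 0.0501) and 1199 genes were called, and against SW480-B EPHB1 and EPHB2 gained theirs (0.0258 and 0.00813) and 1389 genes were called. At this depth EPHB1 rests on 35 counts in SW480.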
